A study of Rattus norvegicus with 18 samples.

Results

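The glutathione S-transferases, the UDP-glucuronosyltransferases and the sulfotransferases are 3 gene families that attach a polar group to a drug or hormone so that it can leave the cell. Their members were followed in rat hepatocytes exposed to 4 chlorobenzene compounds. A gene counted as a member when its symbol began with Gsta, Gstm, Gstp, Gstt, Gstk, Gsto, Gstz, Mgst, Ugt or Sult. The arrays had a probe for 53 such genes, 1 gene aside, out of 39169 genes or unnamed transcripts in all. Of the 53, 46 passed the filter on dim probes, as did 21574 of the whole array, called all genes below. The 46 were 25 glutathione S-transferases (6 Gsta, 8 Gstm, 2 Gstt, 6 other Gst and 3 microsomal Mgst), 12 Ugt genes (2 Ugt1 and 10 Ugt2) and 9 Sult genes (5 Sult1 and 4 Sult2). Gsta4l1, Gstt4, Sult1d1, Sult1e1, Sult4a1, Sult6b1 and Ugt8 were not above background on all 3 arrays of any group and have no values here.

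The hepatocytes were cryopreserved cells of male Sprague Dawley rats. They were kept for 24 h and then given DDMB, CDMB, CDEB or DDEB at 300 µM for 24 h. The labels name the compounds by these codes only, and the title, which asks how they act, places all of them among the p-dialkoxy chlorobenzenes. DMSO was the control, as VC_1 for DDMB, CDMB and CDEB and as VC_2 for DDEB, because the arrays came from different lots. Each of the 6 groups had 3 arrays. The sample titles do not say whether VC_1 and VC_2 came from the same cultures. The design calls the cultures independent, and no label says whether their cells came from different animals, so the spread behind each p-value is that of these cultures and could be technical. VC_1 shared a slide with DDMB, VC_2 shared a slide with 2 of the 3 DDEB arrays, and CDMB and CDEB shared a slide that held no control, so for CDMB and CDEB against VC_1 the compound and the slide cannot be told apart.

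Glutathione S-transferases join glutathione to electrophiles. The cytosolic classes alpha (Gsta), mu (Gstm), pi (Gstp) and theta (Gstt) are soluble dimers, and the Mgst proteins sit in membranes. Ugt enzymes of the endoplasmic reticulum transfer glucuronic acid from UDP-glucuronate, and cytosolic Sult enzymes transfer sulfate from the donor PAPS. Hepatocytes are known for high levels of many, though not all, members of these families. Many members are known targets of the receptors CAR, PXR and AhR and of the factor Nrf2.

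All values are log2 processed signal relative to the 75th percentile of the array, so 0 is that percentile and changes are differences on the log2 scale. Between 61.0% and 64.3% of spots on an array lay well above background, and 45 of the 46 members did so on all 18 arrays. All 10 hepatocyte markers were kept, and their summed level lay between 11.3 and 12.0 in every group. Of the lists for other cell types, 6 of 8 stellate and fibroblast, 3 of 7 myeloid, 3 of 5 bile duct, 2 of 6 endothelial and 1 of 6 lymphocyte markers were kept, and the summed levels of these lists reached 0.926, 3.19, 2.38, -2.21 and -2.91. Col1a1, Lrat, Stab2, Lyve1, Clec4g, Marco, Csf1r, Ptprc, Krt19 and Cd3e were among those that did not pass the filter. With bulk RNA, fewer cells of a type and less RNA per cell cannot be told apart.

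Promoters are shown for the 4 members that the results below turn on: Mgst3, the only member called against a control, Gstp1, the member with the lowest change with DDMB, and Gstm2 and Ugt2b1, which lay above the control on every array with DDMB and with DDEB. Gstm5 (changes of 0.20 and 0.21) and Ugt2b15 (0.21 and 0.24) also lay above the control on every array with DDMB and DDEB. Their promoters are not shown. Each line is the 250 bases before the RefSeq start of the gene (build GRCr8), written 5′ to 3′ on the gene's strand. Capitals mark matches on either strand to TGACNNNGC, the core of the antioxidant response element that Nrf2 binds, or to GCGTG, the core of the element that AhR binds. TATAAA was searched too and had no match in these 4. No motif overlapped another.
Mgst3 (chr13:82080296-82080545, minus strand): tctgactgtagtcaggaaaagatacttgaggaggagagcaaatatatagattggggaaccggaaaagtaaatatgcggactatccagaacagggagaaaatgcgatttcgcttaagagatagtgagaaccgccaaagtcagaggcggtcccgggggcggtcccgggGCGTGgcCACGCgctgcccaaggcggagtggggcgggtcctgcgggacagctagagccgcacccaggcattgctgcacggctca
Gstp1 (chr1:210769706-210769955, minus strand): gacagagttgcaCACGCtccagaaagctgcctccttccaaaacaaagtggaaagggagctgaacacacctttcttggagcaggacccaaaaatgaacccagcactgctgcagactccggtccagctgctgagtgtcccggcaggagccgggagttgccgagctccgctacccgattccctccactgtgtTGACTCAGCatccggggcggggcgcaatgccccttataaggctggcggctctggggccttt
Gstm2 (chr2:198316918-198317167, minus strand): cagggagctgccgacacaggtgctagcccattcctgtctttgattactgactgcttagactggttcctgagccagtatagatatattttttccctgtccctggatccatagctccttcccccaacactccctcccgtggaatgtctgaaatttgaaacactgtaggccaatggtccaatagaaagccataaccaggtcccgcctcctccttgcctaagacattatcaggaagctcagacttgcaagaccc
Ugt2b1 (chr14:21378632-21378881, plus strand): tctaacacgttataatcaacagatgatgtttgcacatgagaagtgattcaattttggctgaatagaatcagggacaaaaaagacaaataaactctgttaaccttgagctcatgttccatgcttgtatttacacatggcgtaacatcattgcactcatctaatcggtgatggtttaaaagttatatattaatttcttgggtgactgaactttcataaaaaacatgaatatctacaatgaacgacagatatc
The Mgst3 promoter held GCGTG and its reverse complement CACGC, starting 84 and 77 bases before the start. The Gstp1 promoter held TGACTCAGC at 61 bases and CACGC at 238 bases before the start. The Gstm2 and Ugt2b1 windows held none of these letters. Of 33469 promoters of the same length, 10.1% held TGACNNNGC, 25.9% held GCGTG and 12.9% held TATAAA. Among the 41 members with a promoter in the table the counts were 5, 10 and 11. Gstm5 was among the members with a match for each of these motifs. Such a match is a stretch of letters and no binding was measured.

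Among the 46 members, 1 changed with DDMB against VC_1 at an adjusted p below 0.05, and it fell. The share called among all genes was 0.556%, with 0.324% lower. No member was called with CDMB (0.0417% of all genes), CDEB (0.111%) or DDEB (0.844%) by the limma fit, which was the only tool run. At an unadjusted p below 0.05 the counts were 8 members with DDMB (6 higher and 2 lower, where 9.9% of all genes lay), 4 with CDMB (all higher, against 13.2%), 5 with CDEB (4 higher, against 13.3%) and 10 with DDEB (9 higher, against 15.1%). By direction, 5.71% of all genes lay higher and 4.19% lower with DDMB, 7.09% and 6.14% with CDMB, 7.39% and 5.87% with CDEB, and 9.28% and 5.87% with DDEB. The median change of the members was 0.0999 with DDMB, 0.0808 with CDMB, 0.0788 with CDEB and 0.0859 with DDEB, against 0.0138, 0.0146, 0.00695 and 0.0143 for all genes tested. Single arrays moved these medians: DDMB to 0.185 when DDMB replicate 2 was left out, and to 0.156 or 0.154 when VC_1 replicate 1 or 2 was, CDMB to 0.0406 without CDMB replicate 1 and 0.123 without VC_1 replicate 1, CDEB to 0.0513 without CDEB replicate 1, and DDEB to 0.0518 without VC_2 replicate 3. Members above 0 numbered 34, 34, 34 and 32 of 46, where 53.5%, 53.2%, 51.6% and 53.0% of all genes lay above 0. In 7 members with DDMB, 11 with CDMB, 12 with CDEB and 8 with DDEB all treated arrays lay above all control arrays, against 8.75%, 13.5%, 15.9% and 10.1% of all genes. With each array weighted by its spread, gene by gene, an alternative added after the data were seen, 21 members were called with DDMB (16 higher and 5 lower), 3 with CDMB, 5 with CDEB and 13 with DDEB (12 higher and 1 lower). Under the same weights 23.3%, 5.82%, 13.5% and 12.8% of all genes were called, against 45.7%, 6.52%, 10.9% and 28.3% of the members.

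**Figure D1:**
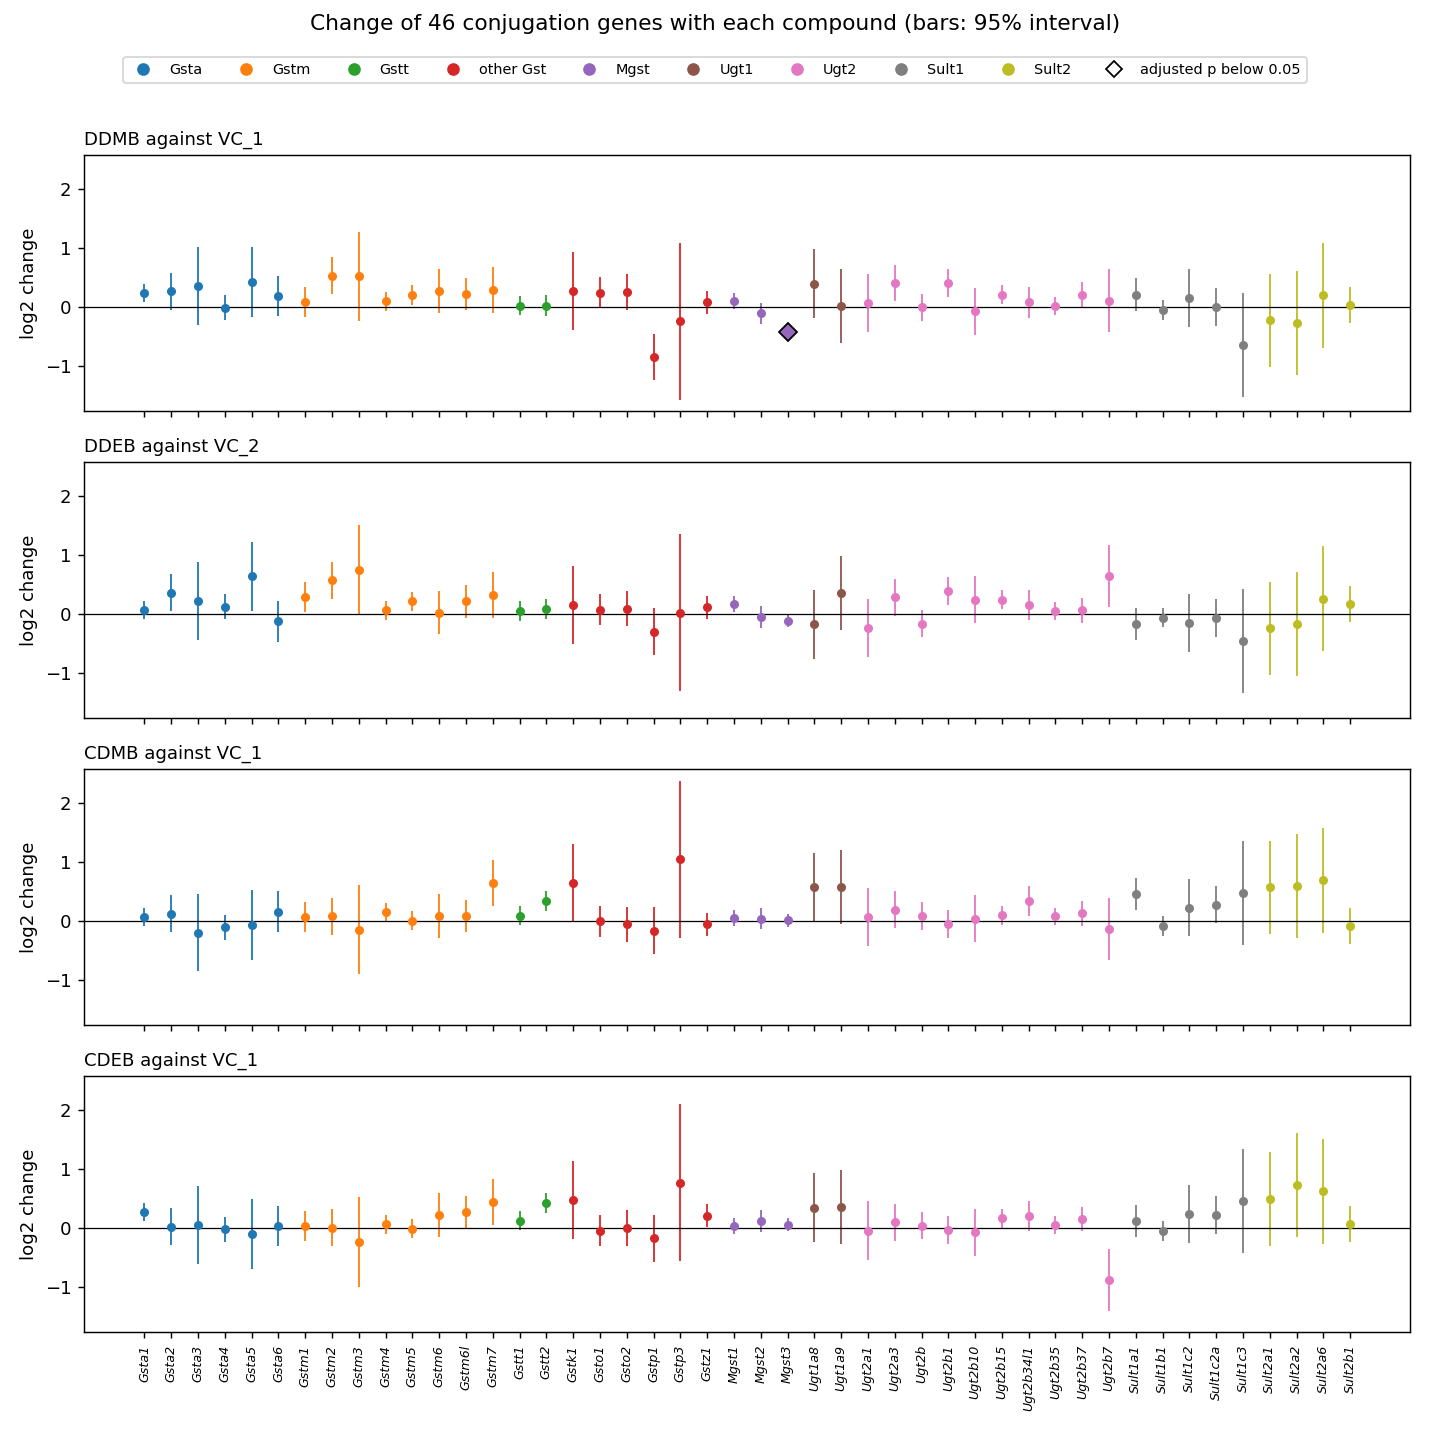
Log2 change of each of the 46 members (x axis, ordered and coloured by family) with each compound against its DMSO control, with 95% intervals from the fit over 18 arrays. The single diamond, Mgst3 with DDMB at -0.42, is the only change past the adjusted threshold, and the widest intervals belong to Gstp3, the Sult2a genes, Sult1c3 and Gstm3.

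The called gene was Mgst3, a membrane-bound transferase that also reduces lipid peroxides with glutathione. Its values were 5.61, 5.51 and 5.57 with DDMB and 6.00, 5.99 and 5.97 in VC_1. The 3 DDMB arrays all lay below the 3 control arrays, and the SDs were 0.0494 and 0.0194. Mgst3 fell by 0.42 ± 0.05 (log2, SE, 0.745-fold, adjusted p = 0.00158). The call held in each of the 6 fits that left out 1 array (adjusted p 0.00231 to 0.0164), and in a fit of these 6 arrays alone the adjusted p was 0.388 at the same change. With CDMB the values were 6.03, 5.94 and 6.02 and with CDEB 6.05, 6.05 and 6.03, changes of 0.01 and 0.05 that did not pass. DDEB arrays read 5.88, 5.97 and 5.94 against 6.07, 6.05 and 6.01 in VC_2, again with no overlap, and the change of -0.12 ± 0.05 had an adjusted p of 0.290. Of the other microsomal members, Mgst1, which acts on reactive electrophiles in the endoplasmic reticulum, had changes from 0.03 to 0.17 and Mgst2 from -0.11 to 0.12. None of these passed. The highest Mgst1 change was with DDEB, where the arrays read 6.47, 6.57 and 6.69 against 6.43, 6.39 and 6.40 in VC_2, also with no overlap.

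Gstp1, the pi-class transferase known in the rat as a marker of preneoplastic liver foci, had the lowest change with DDMB. Its values were 2.58, 2.60 and 2.25 with DDMB and 3.31, 3.13 and 3.54 in VC_1. The groups did not overlap, and the change was -0.85 ± 0.18 (0.555-fold, 95% interval -1.25 to -0.46), with an adjusted p of 0.0621 that missed the threshold. A second Gstp1 probe gave -0.84. The gene passed when the slide was a fixed block (adjusted p = 0.00807) and when only the arrays of this lot were fitted (0.0226), and it did not pass in any fit that left out 1 array (0.0732 to 0.299). With DDEB the values were 2.69, 2.68 and 3.44 against 3.19, 3.05 and 3.47 in VC_2. The third DDEB array, which lay on a slide of its own, was alone among the control values, and without it the change moved from -0.30 to -0.55. CDMB and CDEB gave -0.17 and -0.18, with values that overlapped VC_1. Gstp3, the neighbouring gene in the reference, had 1.05 ± 0.62 with CDMB and 0.77 ± 0.62 with CDEB, the highest change of any member with these compounds, and did not pass. Gstk1, the mitochondrial and peroxisomal kappa enzyme, had 0.64 ± 0.31 with CDMB and 0.47 ± 0.31 with CDEB, not called. Gsto1, which reduces dehydroascorbate, ranged from -0.05 to 0.24, its neighbour Gsto2 from -0.06 to 0.25, and Gstz1, which acts in tyrosine breakdown, from -0.06 to 0.21 over the 4 compounds, none of them called.

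The mu class had 8 kept members, and all 8 lay above 0 with DDMB (median 0.24) and with DDEB (median 0.25), none called. With CDMB 7 of 8 and with CDEB 6 of 8 did so, at medians of 0.0795 and 0.0477. Gstm2 was 5.29, 5.42 and 5.60 with DDMB and 4.91, 4.79 and 5.03 in VC_1, and 5.25, 5.42 and 5.95 with DDEB and 4.91, 4.89 and 5.12 in VC_2. Both treated groups lay wholly above their controls, with changes of 0.53 ± 0.15 (adjusted p = 0.144) and 0.57 ± 0.15 (0.0916). Without DDEB replicate 1 the DDEB change was 0.72 and passed (adjusted p = 0.0467), and with DDEB restricted to the slide of its control it was 0.36. With the replicate number as a block it passed at the same change (adjusted p = 0.0428). CDMB and CDEB gave Gstm2 changes of 0.08 and 0.01, with overlapping arrays. Gstm3, a mu-class gene whose arrays spread widely, read 2.70, 3.30 and 3.43 with DDMB against 2.35, 2.20 and 3.34, and 2.42, 2.80 and 3.51 with DDEB against 1.86, 1.70 and 2.91. In each set the third control array reached into the treated range, and the changes of 0.52 ± 0.36 and 0.75 ± 0.36 did not pass. The second Gstm3 probe gave 0.44 with DDMB and 0.18 with DDEB. Gstm7 had its highest change with CDMB, 0.65 ± 0.18 (adjusted p = 0.208). Gstm1, the most studied mu enzyme of rat liver, ranged from 0.03 to 0.29. The mu genes lie side by side in the reference (Gstm3, Gstm2, Gstm1 and Gstm4 in one run, Gstm5, Gstm6l, Gstm7 and Gstm6 in the other). Probe sequences were not analysed here, so shared signal between such close copies was not tested.

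Of the 6 alpha-class genes, 5 lay above 0 with DDMB and 5 with DDEB, against 3 with CDMB and 4 with CDEB. Gsta5, known for conjugating the aflatoxin epoxide, had the highest changes of this class with DDMB and DDEB. It read 6.90, 7.83 and 7.84 with DDMB against 6.93, 6.89 and 7.48, and 7.63, 7.96 and 8.56 with DDEB against 7.22, 7.20 and 7.82. The groups overlapped in both sets, and the changes of 0.42 ± 0.27 and 0.64 ± 0.27 did not pass. Gsta2 had 0.26 with DDMB and 0.36 with DDEB, not called. Gsta1 was 7.32, 7.52 and 7.64 with DDMB against 7.28, 7.25 and 7.26, a change of 0.23 ± 0.07 (adjusted p = 0.222). Without DDMB replicate 1 it was 0.32 and passed (adjusted p = 0.0287). With CDEB Gsta1 was 7.58, 7.48 and 7.51, a change of 0.26 against VC_1, on the slide without a control. The second Gsta1 probe gave 0.31 with DDMB and 0.20 with CDEB. With CDMB and with DDEB the Gsta1 change was 0.06, and neither these nor the CDEB change passed. Gsta3 and Gsta4 ranged from -0.20 to 0.36 and from -0.11 to 0.12 over the 4 compounds, none called.

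Of the theta class, Gstt1 and Gstt2 were kept. Gstt2, which acts on small halogenated and sulfate-ester substrates, was 3.13, 3.19 and 3.23 with CDMB, 3.25, 3.28 and 3.27 with CDEB and 2.98, 2.90 and 2.66 in VC_1. Both compounds lay above every control array, by 0.33 ± 0.08 and 0.42 ± 0.08 (adjusted p = 0.173 and 0.0724), on the slide without a control. The other Gstt2 probes, which were dimmer, gave 0.09 and 0.23 with CDMB and 0.12 and 0.21 with CDEB. With DDMB the values were 2.93, 2.81 and 2.86 and the change was 0.02. Gstt1 ranged from 0.02 to 0.12 over the 4 compounds.

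**Figure D2:**
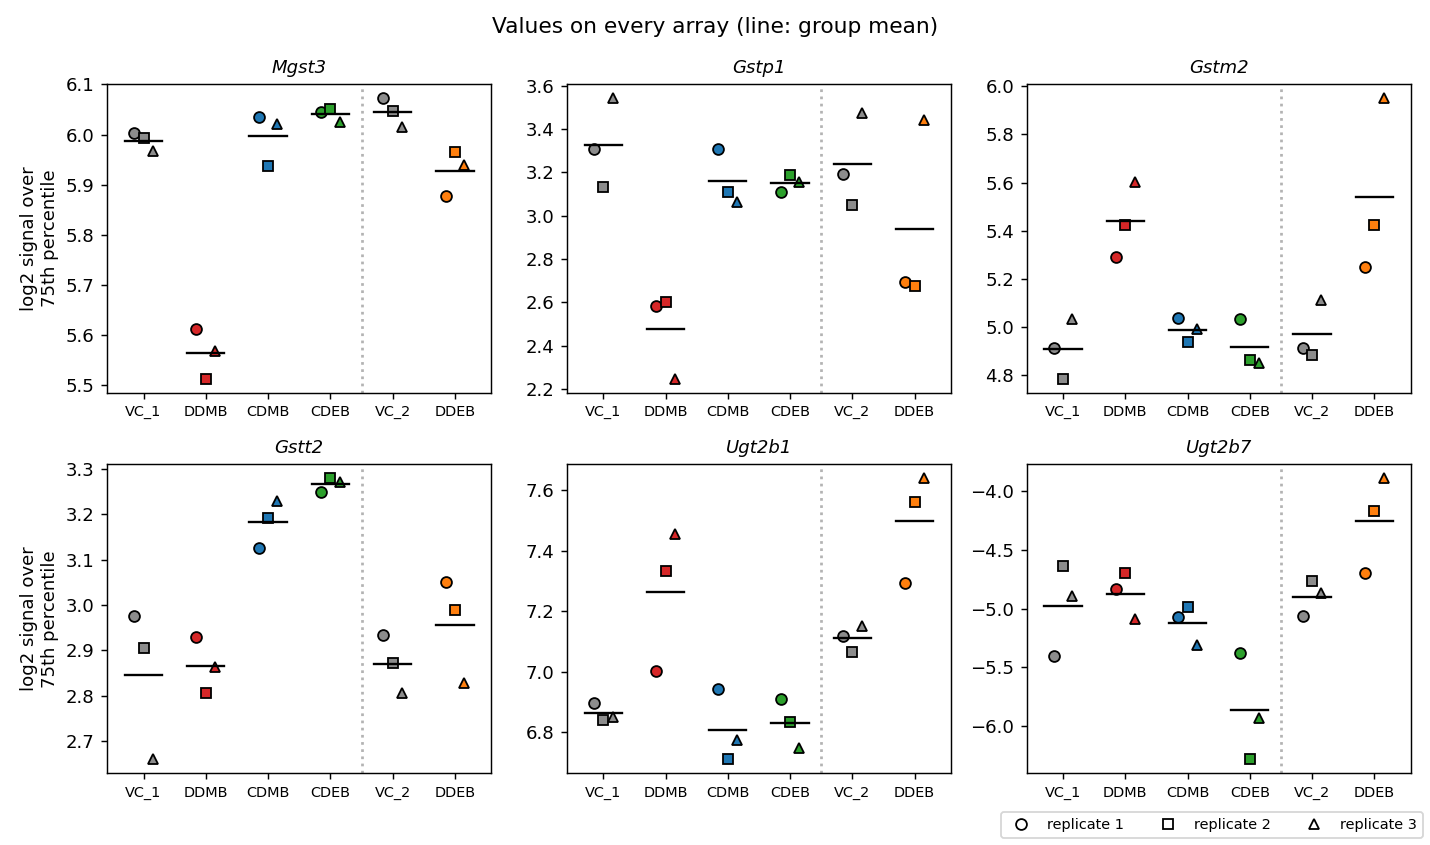
Value on every array for 6 members (y axis, log2 signal over the 75th percentile), by group, with the replicate number as the symbol and the group mean as a line. The dotted line separates the 2 lots. Mgst3 with DDMB lies below all other groups, Gstm2 and Ugt2b1 are higher with DDMB and DDEB, and Gstt2 is higher with CDMB and CDEB.

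Of the 12 Ugt genes, 3 with DDMB, 1 with CDMB and 3 with DDEB lay higher at an unadjusted p below 0.05, 1 with CDEB lay lower, and none passed adjustment. Ugt2b1, a glucuronosyltransferase of rat liver, was 7.00, 7.33 and 7.46 with DDMB against 6.90, 6.84 and 6.85, and 7.29, 7.56 and 7.64 with DDEB against 7.12, 7.06 and 7.15. Neither pair of groups overlapped, and the changes were 0.40 ± 0.11 (adjusted p = 0.153) and 0.39 ± 0.11 (0.129). Without DDMB replicate 1 the DDMB change was 0.53 and passed (adjusted p = 0.0235). CDMB and CDEB gave -0.05 and -0.03 with overlap. Ugt2a3 had 0.41 ± 0.15 with DDMB and 0.28 ± 0.15 with DDEB, and Ugt2b15 had 0.21 and 0.24. The lowest Ugt2 change with DDEB was that of Ugt2a1, -0.25 ± 0.23. Ugt2b10 ranged from -0.08 to 0.24. Of the Ugt1 locus, Ugt1a8 and Ugt1a9 had 0.57 and 0.58 with CDMB and 0.34 and 0.35 with CDEB, none called. Without VC_1 replicate 3 Ugt1a8 had 0.34 and 0.11, and Ugt1a9 0.23 and -0.00096, with CDMB and CDEB. Ugt2b7 lay close to background and was above it on 10 of 18 arrays and on none with CDEB, where the values were -5.37, -6.28 and -5.93 against -5.40, -4.64 and -4.89 in VC_1. The groups overlapped, and the fitted change of -0.89 ± 0.25 (adjusted p = 0.185) was 0.25 with normexp background correction. With DDEB the Ugt2b7 change was 0.65 ± 0.25 (adjusted p = 0.237).

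No Sult gene was called with any compound (at an unadjusted p below 0.05, 1 with CDMB and 0 with the others). With CDMB 7 of 9 and with CDEB 8 of 9 lay above 0 (medians 0.46 and 0.24), and with DDMB and DDEB 4 and 2 did so (medians -0.00795 and -0.15). Sult2a1, Sult2a2 and Sult2a6, which sulfate bile acids and hydroxysteroids, had changes of 0.57, 0.60 and 0.69 with CDMB and 0.49, 0.73 and 0.62 with CDEB. With DDMB they were -0.23, -0.28 and 0.20 and with DDEB -0.25, -0.17 and 0.25, and every standard error was between 0.37 and 0.42. Without VC_1 replicate 3 the CDMB changes of Sult2a1, Sult2a2 and Sult2a6 were 0.32, 0.22 and 0.22, and the CDEB changes 0.25, 0.35 and 0.15. Sult1c3 was -0.59, -2.06 and -1.78 with DDMB and -0.92, -1.28 and -2.24 with DDEB, against -0.45, -0.59 and -1.43 in VC_1 and -0.59, -0.76 and -1.70 in VC_2. The groups overlapped, and the changes of -0.65 ± 0.41 and -0.46 ± 0.41 did not pass. Sult1a1, a phenol sulfotransferase, had 0.46 ± 0.13 with CDMB (adjusted p = 0.208), and its values of 7.67, 7.62 and 7.57 lay above 7.29, 7.26 and 6.94 in VC_1. Sult1b1, which sulfates thyroid hormones, stayed between -0.08 and -0.05 with all 4 compounds, and Sult2b1, a cholesterol sulfotransferase, between -0.09 and 0.17. Sult1c2 had probes that disagreed in sign with DDMB, CDMB and CDEB.

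Single arrays stood apart for many members. In VC_1, replicate 3 lay more than 0.5 below the mean of the other replicates for 10 members and more than 0.5 above it for 3. In VC_2, replicate 3 did so for 10 and 3, and they were the same 10 (Gstk1, Gstm7, Gstp3, Sult1c2, Sult1c3, Sult2a1, Sult2a2, Sult2a6, Ugt1a8 and Ugt1a9) and the same 3 (Gsta3, Gsta5 and Gstm3). Treated arrays stood apart too. DDEB replicate 3 did so for the most members of any array, 12 below and 7 above. The counts below and above were 5 and 6 for DDMB replicate 1, 7 and 0 for DDMB replicate 2, and 4 and 5 for DDEB replicate 1. All these counts were made over the members only. Whether other genes stood apart as often was not tested, so the counts are no trait of these families. Gstp3 read 0.52, 0.23 and -1.56 in VC_1 and 0.35, 0.00 and -1.67 in VC_2. With CDMB it read 1.02, 0.79 and 0.53 and with CDEB 0.45, 0.58 and 0.48. The mean hepatocyte marker level of VC_1 replicate 3 and VC_2 replicate 3 lay 0.38 and 0.39 below the mean of their groups, that of DDMB replicate 2 lay 0.30 below and that of DDEB replicate 3 0.15 below, while no CDMB or CDEB array deviated by more than 0.0829. Summed myeloid markers reached from 1.75 to 3.05 in VC_1 and from 3.07 to 3.19 with CDMB, and summed bile duct markers from 1.76 to 2.38 and from 1.62 to 1.69. The part of these differences in the members' values was not tested.

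With VC_1 replicate 3, VC_2 replicate 3 and DDMB replicate 2 left out, the CDMB changes of Gstp3, Sult2a6 and Gstk1 went from 1.05, 0.69 and 0.64 to 0.40, 0.22 and 0.32. The CDEB changes of Gstp3, Sult2a2 and Sult2a6 went from 0.77, 0.73 and 0.62 to 0.12, 0.35 and 0.15. Gstm3 went from 0.52 to 0.79 with DDMB and from 0.75 to 1.13 with DDEB. Mgst3 with DDMB was -0.41 and stayed called (adjusted p = 0.0203). Without DDEB replicate 3 alone, the DDEB changes of Gstm3, Gsta5 and Sult1c3 went from 0.75, 0.64 and -0.46 to 0.45, 0.38 and -0.08. Those of Sult2a1, Sult2a2 and Ugt2a1 turned from -0.25, -0.17 and -0.25 to 0.06, 0.20 and 0.08. With DDMB, Sult1c3 and Sult2a2 went from -0.65 and -0.28 to -0.36 and -0.08 without DDMB replicate 2, and Sult2a6 turned from 0.20 to -0.27 without VC_1 replicate 3.

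**Figure D3:**
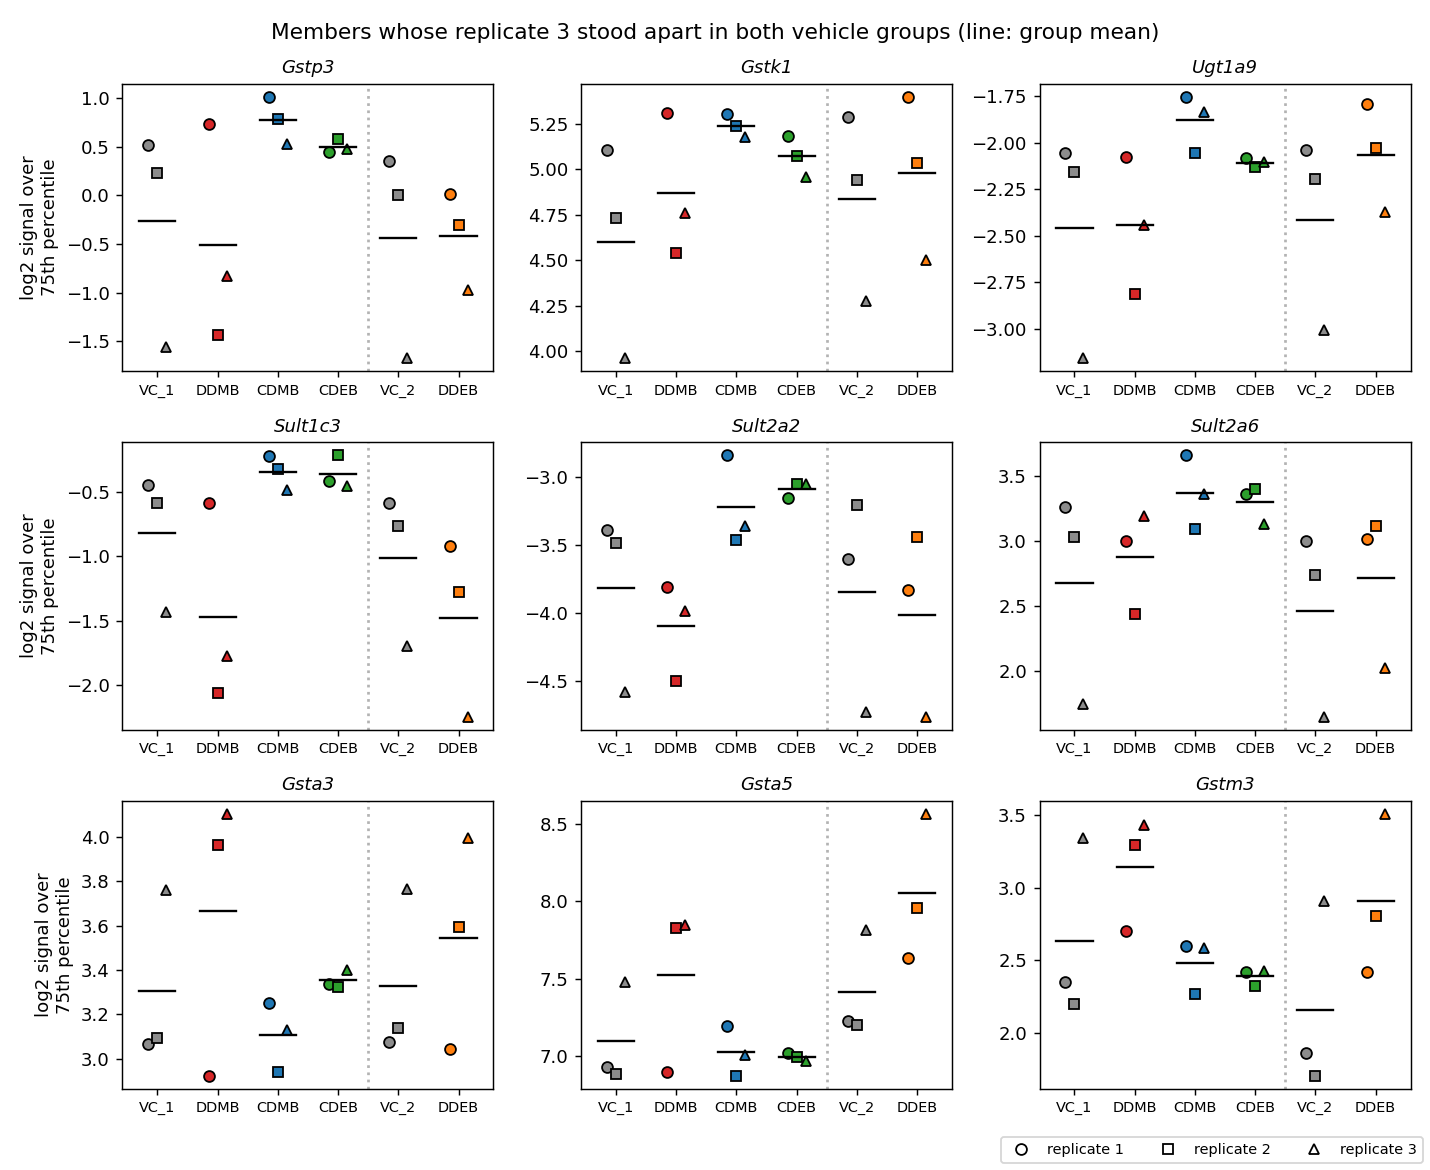
Value on every array (y axis, log2 signal over the 75th percentile) of 9 members whose replicate 3 (triangle) lay apart from the other replicates in both VC_1 and VC_2, with the group mean as a line. In the upper 6 panels the triangles of VC_1 and VC_2 lie lowest of their groups, and in the lower 3 they lie highest.

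The compounds were compared with each other at the same concentration and time, in 6 pairs, with p-values adjusted over all genes within each pair. DDMB differed from CDEB for 4 of 46 members (8.70%), where 3.27% of all genes were called. Mgst3 was lower with DDMB by 0.48 ± 0.05 (log2 difference -0.48, adjusted p = 0.000488) and Gstt2 by 0.40 ± 0.08 (difference -0.40, adjusted p = 0.0219). Ugt2b1 was higher with DDMB by 0.43 ± 0.11 (adjusted p = 0.0498). Ugt2b7, below background with CDEB, had means of -4.87 with DDMB and -5.86 with CDEB (adjusted p = 0.0451). With normexp background correction the difference was -0.21, the opposite direction. No minimum fold is given, since with DDEB Ugt2b7 read -4.70, -4.17 and -3.89 and yet only 2 of these arrays lay above background. Ugt2b7 passed the filter only through DDMB, where alone all 3 arrays lay above background. Its call, 1 of the 4, is therefore no support for a difference. The Gstt2, Ugt2b1 and Ugt2b7 calls were lost in 5 of the 6 fits that left out 1 array, and the mean over the 3 Gstt2 probes gave -0.17. DDMB differed from CDMB for Mgst3 alone (-0.43 ± 0.05, adjusted p = 0.00228), where 0.677% of all genes were called. DDMB lay on another slide than CDMB and CDEB, so compound and slide cannot be told apart for these 5 differences. With slide as a random block the adjusted p of Mgst3 was 0.347 against CDEB and 1.00 against CDMB.

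CDEB and CDMB lay on the same slide and no member differed, where 0 of 21574 genes were called. At an unadjusted p below 0.05 the count was 4 of 46: Gstz1 (0.27) and Gsta1 (0.20) lay higher with CDEB, and Sult1a1 (-0.34) and Ugt2b7 (-0.74) lower. At the same threshold 4.71% of all genes lay. The 95% interval of the difference lay within 0.5 either way for 28 members and within 1 for 43. Ugt2b7 had the largest difference, -0.74 (interval -1.27 to -0.21, adjusted p = 0.802), which was 0.12 with normexp background correction. Mgst3 differed by 0.04 (interval -0.07 to 0.15) and Gstp1 by -0.01 (interval -0.41 to 0.38).

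For DDEB the compared value was the difference of effects, each over its own DMSO group. No member was called against DDMB (0 of all genes called, with 1 member and 5.78% of all genes at an unadjusted p below 0.05), CDMB (0 called, with 5 members and 5.82% at that p) or CDEB (0.00464% of all genes called, with 5 members and 6.61% at that p). The single member against DDMB was Mgst3, whose fall with DDMB exceeded the DDEB value by 0.31 (interval 0.15 to 0.46, unadjusted p = 0.000759, adjusted p = 0.455). The Gstm2 effects of DDEB and DDMB differed by 0.04 (interval -0.40 to 0.48) and the Ugt2b1 effects by -0.01 (interval -0.35 to 0.32). Gstp1 differed by 0.55 (interval -0.01 to 1.11). Intervals lay within 1 either way for 32 of 46 members in this pair.

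**Figure D4:**
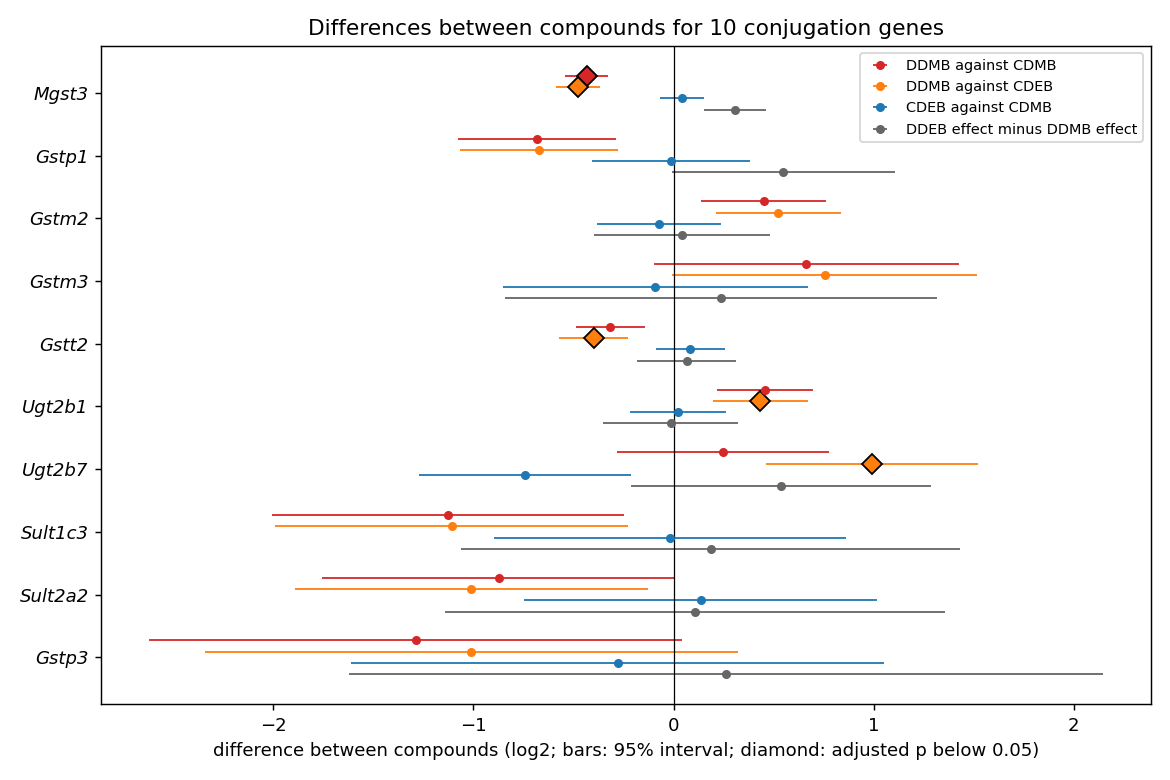
Differences between compounds (x axis, log2, with 95% intervals) for 10 members and 4 of the pairs, with DDEB set against DDMB as a difference of effects over their own controls. Diamonds mark an adjusted p below 0.05 and are seen for Mgst3 against both CDMB and CDEB and for Gstt2, Ugt2b1 and Ugt2b7 against CDEB, while all blue intervals (CDEB against CDMB) but that of Ugt2b7 include 0. Ugt2b7 passed the filter only through DDMB.

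Around the conjugating enzymes, a list of 49 pathway genes covered cosubstrate supply, later steps and export, and 42 were measured. With DDMB 1 was called against VC_1, where 0.556% of all genes were. The gene was Slc26a1, a sulfate carrier of the hepatocyte membrane. It was 4.89 ± 0.16 with DDMB and 5.29 ± 0.03 in VC_1 (mean ± SD, n = 3), fell by 0.40 ± 0.07 (adjusted p = 0.0311), and was also lower than with CDMB (-0.46, adjusted p = 0.0136) and CDEB (-0.51, adjusted p = 0.00502). None of the 42 was called with CDMB, CDEB or DDEB, where 1, 2 and 9 lay at an unadjusted p below 0.05, against 13.2%, 13.3% and 15.1% of all genes. With DDMB 9 did so, 3 higher and 6 lower, against 9.9%. Abcc2, which exports glutathione and glucuronide conjugates into bile, was 0.47 ± 0.10 above VC_1 with DDMB (adjusted p = 0.0509) and 0.26 ± 0.10 above VC_2 with DDEB (0.235), and had -0.19 and -0.32 with CDMB and CDEB. It was higher with DDMB than with CDMB by 0.66 (adjusted p = 0.0104) and than with CDEB by 0.79 (0.00222). Against CDEB, DDMB was also lower for Sts, which removes sulfate from steroids (-0.82, adjusted p = 0.0324), and for the methyltransferases Nnmt (-0.49, 0.0151) and Gnmt (-0.81, with an adjusted p just under the threshold). Among all genes, 0.677% were called between DDMB and CDMB and 3.27% between DDMB and CDEB. DDMB lay on another slide than CDMB and CDEB, so compound and slide cannot be told apart for these pathway genes either. Changes under the alternative fits were kept for the members only. Of the 8 glutathione supply genes and the 7 genes of UDP-glucuronate supply and glucuronide removal, none was called with any compound. Gsr, which regenerates glutathione, had 0.31 with DDMB (adjusted p = 0.187) and 0.37 with DDEB (0.0754).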

How the data were processed

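RNA of rat hepatocyte cultures was measured on 1-colour Agilent arrays (Feature Extraction 10.7.1.1, per the file headers), 18 in all and 3 in each of 6 groups. The deposited scanner files hold the software's processed intensity per spot, with a background-subtracted signal in a column of its own. The correction behind the processed intensity was not given in the sources used here. The authors' deposited tables hold a signal ratio that equals it divided by the array's 75th percentile up to a constant. No saturated probe spot was seen. Control spots were left out, spots of a probe averaged, and log2 intensity minus the 75th percentile taken (percentile intensity 421 to 640). A probe was kept when all 3 arrays of some group had it well above background, and the brightest probe stood for a gene. Symbols came from RefSeq through the probe's accession: 21109 of 45598 probes were named and 24489 were not. One member is not reported here.

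The fit was limma 3.58.1 (R 4.3.3) over all 18 arrays (12 residual degrees of freedom), with Benjamini-Hochberg adjustment over 21574 genes and a threshold of 0.05. It treated all 18 arrays as independent, those of VC_1 and VC_2 included. All adjusted p-values, intervals (95%) and standard errors come from it. No fold bound is given for Ugt2b7, the member that lay below background on some arrays. On simulated data for DDMB against VC_1 (21574 genes, 200 changed), 33.5%, 75.5% and 93.5% of changes of 0.5, 1 and 2 (log2) were recovered. The simulated noise was independent between genes and arrays. Deviations that many genes share on an array were not simulated, so recovery in the real data can differ. The number of arrays limits the precision. Named members are those called, the 4 highest and 4 lowest per compound, and a list of common enzymes. Members and lists were chosen with earlier results of these data known. Alternatives concerned background (normexp, offset 50, on the median signal, the column the files hold), normalization, filter, probe choice, arrays fitted, array weights, slide and replicate block.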

Additional observations from a re-analysis of the deposited data

Results flagged for a closer look

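Of the members, 4 differed between compounds by the test of the difference itself. Mgst3 differed between DDMB and CDMB by -0.43 and between DDMB and CDEB by -0.48 (log2). The DDMB and CDEB groups also differed for Gstt2 by -0.40, for Ugt2b1 by 0.43 and for Ugt2b7 by 0.99, a fitted value that is no bound because CDEB lay below background. Ugt2b7 passed the filter only through DDMB, so its call is no support for a difference. The groups compared lay on different slides, so what the compound and what the slide contributed cannot be told apart. No outlier test was run in groups of 3 arrays, and the counts above of arrays that stood apart are descriptions.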

How the results depend on the processing

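Counts of members called moved as follows, the cause not tested unless stated. Array weights by REML, which did not converge (weights 0.0732 to 31.0), called 39 members with DDMB, 9 with CDMB, 18 with CDEB and 27 with DDEB, 33 for DDMB against CDMB, 35 against CDEB, 2 for CDEB against CDMB, and 15, 17 and 20 for the DDEB effect against those of DDMB, CDMB and CDEB. In the same order, 76.0%, 26.3%, 40.3%, 38.3%, 47.7%, 60.4%, 1.72%, 43.2%, 21.0% and 28.5% of all genes were called. Gene-by-gene weights (0.108 to 3.81), added after seeing the data, gave 21, 3, 5 and 13, then 27, 23 and 2, and 2, 0 and 1, where 23.3%, 5.82%, 13.5%, 12.8%, 29.4%, 39.8%, 1.28%, 3.14%, 0.83% and 2.17% of all genes were called. Under REML weights, changes with DDMB reversed for Gsta4 (0.14), Gstt2 (-0.040), Ugt1a9 (-0.28), Ugt2a1 (-0.13) and Ugt2b7 (-0.42), and normexp reversed Ugt2b7 between DDMB and CDEB (-0.21). With DDMB, 1 became 2 with the percentile over detected probes, the authors' deposited tables, probes above background on all arrays, arrays of one lot or slide as a random block, 3 with slide as a fixed block, and 0 with only the arrays compared, where fewer samples were fitted. DDMB against CDMB, 1 in the report, gave 2 with the deposited tables or one lot and 0 with only the arrays compared or slide as a random block. DDMB against CDEB, 4 in the report, gave 2 with quantile normalization, the mean of probes or the 3 arrays of low hepatocyte markers left out (added after seeing the data), 1 with no filter, and 0 with only the arrays compared or slide as a random block.

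Leaving out 1 array gave 1 to 3 members with DDMB, 0 to 1 with DDEB, 1 to 2 for DDMB against CDMB, 1 to 5 against CDEB and 0 to 0 for the other comparisons. Medians ranged from 0.0740 to 0.185 with DDMB, 0.0406 to 0.123 with CDMB, 0.0513 to 0.0988 with CDEB and 0.0518 to 0.115 with DDEB.

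Equal replicate numbers were not taken as pairs, since no label ties them and not every same-numbered pair's deviations correlated above 0.1. For replicates 1, 2 and 3 the correlations with the control were 0.56, -0.42 and 0.09 for DDMB, 0.014, 0.044 and 0.058 for CDMB, 0.20, -0.0023 and 0.11 for CDEB, and 0.43, 0.096 and 0.49 for DDEB, all positive in the last. Over all pairs of arrays from different groups, the 45 of equal number had a median correlation of 0.080 (-0.42 to 0.81). The 90 of unequal number had a median of -0.044 (-0.68 to 0.63). The correlations of VC_1 with VC_2 are not listed one by one. On replicate 3 of both, the same 10 members lay below and the same 3 above. Whether VC_1 and VC_2 arrays of equal number share cultures was not tested. If they do, the 2 controls in each difference of effects are not independent. With the replicate number as a block, 1 member was called with DDEB (Gstm2, 0.57, adjusted p = 0.0428).

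Ugt2b7 lay near background, above it on 10 of 18 arrays, and signal shared by paralogs was not tested.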
